A study of Homo sapiens with 24 samples.

Results

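Chemokine receptor transcripts were followed in the multiple myeloma lines MM1S and MM1R, with CXCR4 at the centre. The set was chosen by name and holds 8 genes: CXCR4, CXCR3, CX3CR1, CCR1, CCR2, CCR7, CCR10 and CXCR5. They are read by 22 probes, those annotated to 1 of these genes alone, of the 30106 probes with 1 gene symbol that represent 20045 genes on the array. CXCR4 has 3 probes, CX3CR1 2, CCR2 10, CXCR5 3 and each of the other genes 1.

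RNA from both lines was hybridised to Illumina HumanHT-12 beadchips, 24 arrays in 8 groups of 3, to ask which transcripts respond to a glucocorticoid in sensitive and resistant myeloma cells and which respond to a synthetic microRNA. In the first experiment MM1S and MM1R cells were exposed to 1 µM dexamethasone (Dex), a synthetic glucocorticoid, for 72 h, and set against untreated cells. In the second experiment cells were electroporated with a synthetic mir-150-5p mimetic at 150 nM, against a mock control, and harvested after 72 h. MM1S is a glucocorticoid sensitive B cell myeloma line, and MM1R is a subclone of it that became steroid resistant under long exposure to Dex, so sensitivity and resistance are each represented by 1 line. The 8 groups were therefore MM1S with Dex and untreated, MM1R with Dex and untreated, MM1S with mimetic and mock, and MM1R with mimetic and mock. The study describes its replicates as independent experiments, and only the spread between 3 arrays per group enters the tests.

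Chemokine receptors are G protein-coupled receptors that steer leukocytes along gradients of small secreted chemokines. CXCR4 binds CXCL12, which bone marrow stroma secretes, and this pair retains plasma cells and myeloma cells in the marrow. CXCR3 binds the interferon-induced ligands CXCL9, CXCL10 and CXCL11, CX3CR1 binds the membrane-bound chemokine CX3CL1, CCR1 and CCR2 answer inflammatory chemokines such as CCL3 and CCL2, CCR10 guides plasma cells to mucosal epithelia through CCL28, and CCR7 and CXCR5 place lymphocytes in the T cell zone and the follicles of lymphoid tissue.

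Upstream sequence is shown for CXCR4 and CXCR3, the receptors whose probes moved in opposite directions with Dex. The windows are the 250 bases before the transcript start in the RefSeq promoter table (GRCh38.p14), written 5′ to 3′ on the gene's own strand, which is the minus strand for both. The CXCR4 window lies at chr2:136118150-136118399 and is the outermost of 3 windows listed for the gene, and the CXCR3 window lies at chrX:71618512-71618761. Capitals mark matches on either strand to the motifs searched.
CXCR4: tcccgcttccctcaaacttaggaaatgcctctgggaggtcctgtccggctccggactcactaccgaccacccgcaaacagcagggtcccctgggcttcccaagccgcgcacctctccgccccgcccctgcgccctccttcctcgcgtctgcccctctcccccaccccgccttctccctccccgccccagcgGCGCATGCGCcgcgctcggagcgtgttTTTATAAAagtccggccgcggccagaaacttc
CXCR3: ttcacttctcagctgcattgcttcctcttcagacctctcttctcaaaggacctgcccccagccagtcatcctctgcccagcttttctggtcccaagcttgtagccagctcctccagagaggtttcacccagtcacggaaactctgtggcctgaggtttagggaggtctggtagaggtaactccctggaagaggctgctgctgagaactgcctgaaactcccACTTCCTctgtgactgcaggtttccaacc
The motifs were the glucocorticoid receptor half-site AGAACA, the full element of facing half-sites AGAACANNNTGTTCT, the TATA box TATAAA, the NRF-1 core GCATGCGC, the AP-1 site TGANTCA, the forkhead site GTAAACA and the ETS site AGGAAGT. In the CXCR4 window TATAAA lies 32 and 30 bases and GCATGCGC 59 and 57 bases before the start, each pair being overlapping matches on both strands. The CXCR3 window holds AGGAAGT on the opposite strand, 29 bases before the start. Of 35116 windows of the same length in the table, 10.7% hold TATAAA, 2.63% GCATGCGC and 7.01% AGGAAGT. The half-site AGAACA occurs in 12.4% of all windows and, among the 10 windows of the 6 members listed in the table, only in that of CXCR5, and the full element in 0.00285% and in none of these. The AP-1 site, present in 6.57% of windows, was found for CCR2, the forkhead site (2.98%) for no member, and AGGAAGT also for CX3CR1 and CCR1. Such matches describe the letters of these windows and are not evidence of binding.

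All values are log2 intensities after quantile normalization of the 24 arrays. A probe was counted as over background on an array where its deposited detection p-value was under 0.05, which held for 17059 to 21328 probes per array. Of the 22 receptor probes 9 were over background on all 24 arrays and 6 on none. Each gene was read at its probe with the highest mean signal. At these probes CXCR4, CXCR3, CX3CR1, CCR1, CCR2 and CCR10 were over background on all 24 arrays. CCR7 was over background on none, with values of 6.70 to 7.05, and could not be tested. CXCR5 was over background on 11 arrays, all of MM1R cells, so it entered the fits only through the MM1R arrays, has only a bound in MM1S cells and had to differ between the lines. It is therefore described by its levels and left out of the counts and medians of each comparison that involves MM1S cells, which cover the other 6 genes. The 9 plasma cell markers examined, among them SDC1, TNFRSF17 and XBP1, were over background on all 24 arrays, with a summed linear intensity of 43971.8 to 46824.7 in MM1S cells with Dex and 47052.2 to 53513 in untreated MM1S cells. Their sum was 40814.2 to 51863.6 in MM1S cells with the mimetic and 49721.6 to 59527 in mock MM1S cells. In MM1R cells the sum was 56148.3 to 56701.6 with Dex and 56174.8 to 57091 untreated. It was 51130.1 to 57824.4 in MM1R cells with the mimetic and 50806 to 60955.7 in mock MM1R cells. The sum was thus higher in untreated MM1R than in untreated MM1S cells without overlap, while the ranges of the mock lines overlapped. PAX5 (B cells), CD3D and KLRD1 (T and NK cells), S100A8 and VCAN (monocytes) were over background on no array, whereas CR2, TRAT1 and CD68 of the same marker lists were over background on all 24. The part of the marker levels in the receptor results was not tested. In such bulk RNA, fewer cells with a transcript and less of it per cell cannot be told apart.

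**Figure D1:**
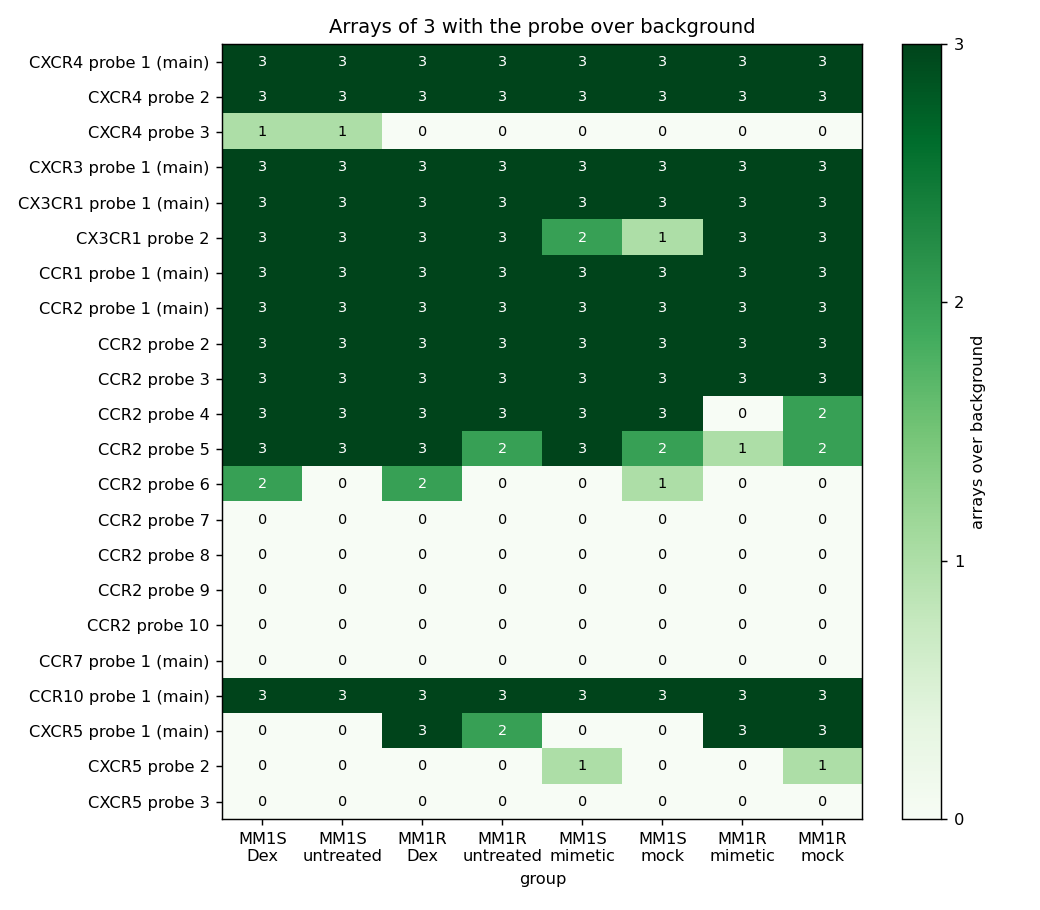
Number of arrays, of 3 per group, on which each of the 22 receptor probes was over background (detection p-value under 0.05). Rows are probes, numbered within a gene by mean signal, and columns are the 8 groups. The main CXCR5 probe was over background in MM1R groups only, and the CCR7 probe in none.

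One array stood apart from its group among the MM1S mimetic and mock arrays, the only arrays for which these distances were taken. Over all 47220 probes, MM1S mimetic replicate 3 differed from the 3 MM1S mock arrays with an SD of the log2 differences of 0.138 to 0.168, and from mimetic replicates 1 and 2 with SDs of 0.241 and 0.242. Replicates 1 and 2 differed from each other by 0.114. The labels place the array in the mimetic group. The mimetic results in MM1S cells are therefore given with it and without it, and so are other results whose call or order it changed. Leaving out an array chosen for lying near mock favours a larger mimetic difference with a smaller error, so the values without it are descriptive. Array weights moved the CXCR4 and CX3CR1 mimetic differences in MM1S cells towards the values without it. Mimetic results with array weights are therefore descriptive too.

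In MM1S cells Dex raised CXCR4 and lowered CXCR3, while the other 4 receptors over background did not pass the test. CXCR4 measured 11.98, 11.99 and 12.03 in MM1S cells with Dex, against 9.77, 9.90 and 10.08 in untreated MM1S cells. All 3 Dex arrays lay above all untreated arrays, and they were nearly equal to each other. CXCR4 rose by 2.08 ± 0.15 on the log2 scale, 4.24-fold (limma, adjusted p = 3.49e-09, 95% interval 1.77 to 2.39, n = 3 arrays per group). The second CXCR4 probe, annotated to another RefSeq transcript of the gene, measured 10.95, 10.85 and 10.79 with Dex, against 8.55, 8.57 and 8.72 untreated, a rise of 2.25 ± 0.10 (limma, adjusted p = 2.68e-12). The third CXCR4 probe was over background on 2 of 24 arrays and was not tested.

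CXCR3 moved the other way. It measured 7.76, 8.16 and 8.01 in MM1S cells with Dex, against 9.11, 8.89 and 9.29 in untreated MM1S cells. The ranges did not overlap, and CXCR3 fell by 1.12 ± 0.16 on the log2 scale, 2.18-fold (limma, adjusted p = 2.89e-05, n = 3). CX3CR1 measured 9.41, 9.32 and 8.93 with Dex, against 8.72, 8.87 and 8.90 untreated. Its ranges did not overlap either, but the difference of 0.39 ± 0.21 did not pass the test (limma, adjusted p = 0.213). It passed when only these groups were fitted (adjusted p = 0.0196) and with array weights (0.48, adjusted p = 0.0191). CCR1, CCR2 and CCR10 differed by -0.10 to 0.19, and their adjusted p ranged between 0.459 and 0.872. Thus 2 of 6 receptors passed, where 27.7% of all 11530 genes tested passed in this comparison, and their median difference of 0.12 lay beside one of 0.01 over all genes.

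In MM1R cells no receptor passed the test with Dex. CXCR4 measured 9.22, 9.81 and 9.54 in MM1R cells with Dex, against 9.81, 9.63 and 9.21 in untreated MM1R cells. The groups covered the same range, and the difference was -0.02 ± 0.15 (limma, adjusted p = 0.998, 95% interval -0.33 to 0.29). CXCR3 measured 9.38, 10.07 and 9.57 with Dex, against 9.74, 10.13 and 9.62 untreated, a difference of -0.16 ± 0.16 (limma, adjusted p = 0.997). The background in this comparison was 0%, since none of the 11530 genes passed limma's test and 432 had an unadjusted p under 0.05.

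The Dex effects of both lines were then compared directly. The CXCR4 effect in MM1S cells exceeded that in MM1R cells by 2.11 ± 0.21 on the log2 scale (limma interaction, adjusted p = 1.10e-06), and the second probe gave 2.39 ± 0.14 (adjusted p = 6.89e-10). For CXCR3 the difference of the effects was -0.96 ± 0.23 (limma, adjusted p = 0.00686). These were 2 of 6 receptors, beside 17.5% of all genes in the same comparison. Of the CCR2 probes, 1 fainter probe also passed, with values of 7.30, 7.20 and 7.25 in MM1S cells with Dex, 7.48, 7.48 and 7.39 in untreated MM1S cells, 7.77, 7.53 and 7.53 in MM1R cells with Dex and 7.40, 7.36 and 7.24 in untreated MM1R cells. Its effects differed by -0.47 ± 0.12 (limma, adjusted p = 0.00882), while the main CCR2 probe gave -0.27 ± 0.18 (adjusted p = 0.352). The remaining CCR2 probes that were tested did not pass.

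**Figure D2:**
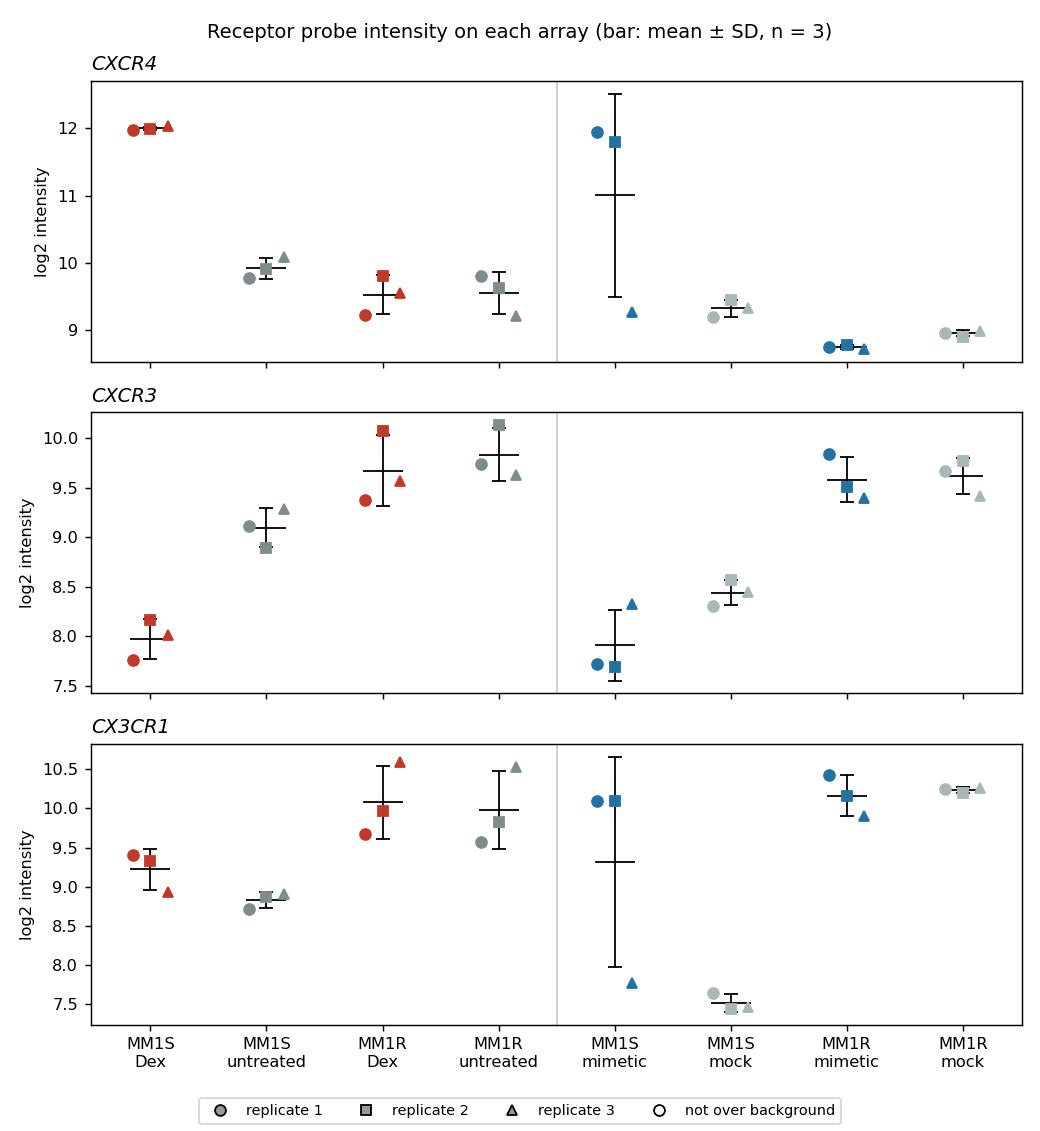
Log2 intensity (y axes) of the main CXCR4, CXCR3 and CX3CR1 probes on each of the 24 arrays, by group (x axis). Points are single arrays with a shape per replicate number, and bars give the mean ± SD of 3 arrays. In MM1S cells the CXCR4 arrays with Dex sit between 11.98 and 12.03, and the third mimetic array lies with the mock arrays at 9.26.

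With all 3 arrays, the mimetic changed no receptor past the threshold in MM1S cells in the main fit, although replicates 1 and 2 were high for CXCR4 and CX3CR1. CXCR4 measured 11.95, 11.80 and 9.26 in MM1S cells with the mimetic (replicates 1, 2 and 3), against 9.19, 9.45 and 9.33 with mock. The groups overlapped only through replicate 3, which lay within the mock range. The difference was 1.69 ± 0.45 (limma, adjusted p = 0.0718, 95% interval 0.72 to 2.65). It passed without the filter on dim probes, in a fit of all 24 arrays and with the replicate number as a block (adjusted p = 0.0447, 0.00617 and 0.0311). With array weights it passed at 2.32 (adjusted p = 3.58e-06), nearer to the value without replicate 3. Over replicates 1 and 2 the CXCR4 difference was 2.56 ± 0.12, 5.89-fold (limma, adjusted p = 1.78e-09), and the second probe gave 1.53 ± 0.43 with and 2.35 ± 0.12 without replicate 3 (adjusted p = 0.0781 and 3.79e-09).

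CX3CR1 followed the same pattern of arrays. It measured 10.10, 10.09 and 7.76 in MM1S cells with the mimetic, against 7.64, 7.43 and 7.45 with mock. Replicate 3 lay just above the highest mock array and far below the other mimetic arrays. The difference was 1.81 ± 0.41 with all arrays (limma, adjusted p = 0.0560) and 2.59 ± 0.15, 6.02-fold, without replicate 3 (adjusted p = 7.72e-09). With all arrays it passed under median centring, without the filter, in a fit of 24 arrays and with the replicate number as a block (adjusted p = 0.0370, 0.0254, 0.00377 and 0.0130). With array weights it passed at 2.47 (adjusted p = 2.34e-06), again nearer to the value without replicate 3. The second CX3CR1 probe, over background on 21 arrays, measured 7.71, 7.73 and 7.08 with the mimetic and 7.09, 7.17 and 6.95 with mock. Its difference was 0.44 ± 0.16 with all arrays (limma, adjusted p = 0.147) and 0.65 ± 0.13 without replicate 3 (adjusted p = 0.00245).

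CXCR3 measured 7.72, 7.68 and 8.32 in MM1S cells with the mimetic, against 8.31, 8.57 and 8.44 with mock. Replicates 1 and 2 lay below all mock arrays and replicate 3 at the low end of them. The difference was -0.53 ± 0.17 with all arrays (limma, adjusted p = 0.107) and -0.74 ± 0.15 without replicate 3 (adjusted p = 0.00241). CCR1, CCR2 and CCR10 differed by -0.06 to 0.02 with all arrays and by -0.29 to -0.0011 without replicate 3, none past the threshold in either fit. The main CCR2 probe was highest in mimetic replicate 3 (9.84) and mock replicate 1 (9.80), with the other 4 arrays of these groups at 8.83, 8.996, 8.86 and 8.96. With all arrays 0 of 6 receptors passed limma's test beside 0.566% of 12361 genes, and without replicate 3 the count was 3 of 6 beside 19.4% of 12253 genes.

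In MM1R cells no receptor passed the test with the mimetic. CXCR4 measured 8.74, 8.77 and 8.71 with the mimetic, against 8.96, 8.90 and 8.98 with mock. All mimetic arrays lay below all mock arrays, and the difference of -0.20 did not pass (limma, adjusted p = 0.999, SE 0.45 with all 12 arrays and 0.11 without MM1S mimetic replicate 3). CX3CR1 measured 10.43, 10.16 and 9.91 with the mimetic and 10.25, 10.20 and 10.26 with mock, a difference of -0.07 ± 0.41 (adjusted p = 0.999). No receptor and 0% of all genes passed limma's test in MM1R cells in either fit, and 249 and, without that array, 300 genes had an unadjusted p under 0.05.

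The mimetic effect in MM1S cells minus that in MM1R cells was 1.89 ± 0.64 for CXCR4, 1.89 ± 0.59 for CX3CR1 and -0.49 ± 0.24 for CXCR3 with all arrays, and none passed (limma, adjusted p = 0.307, 0.302 and 0.410, beside 0% of all genes, 1600 of which had an unadjusted p under 0.05). Without replicate 3 the same differences were 2.76 ± 0.17, 2.66 ± 0.20 and -0.70 ± 0.20, and these 3 of 6 receptors passed (adjusted p = 7.10e-08, 4.39e-07 and 0.0395, beside 9.25% of all genes).

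**Figure D3:**
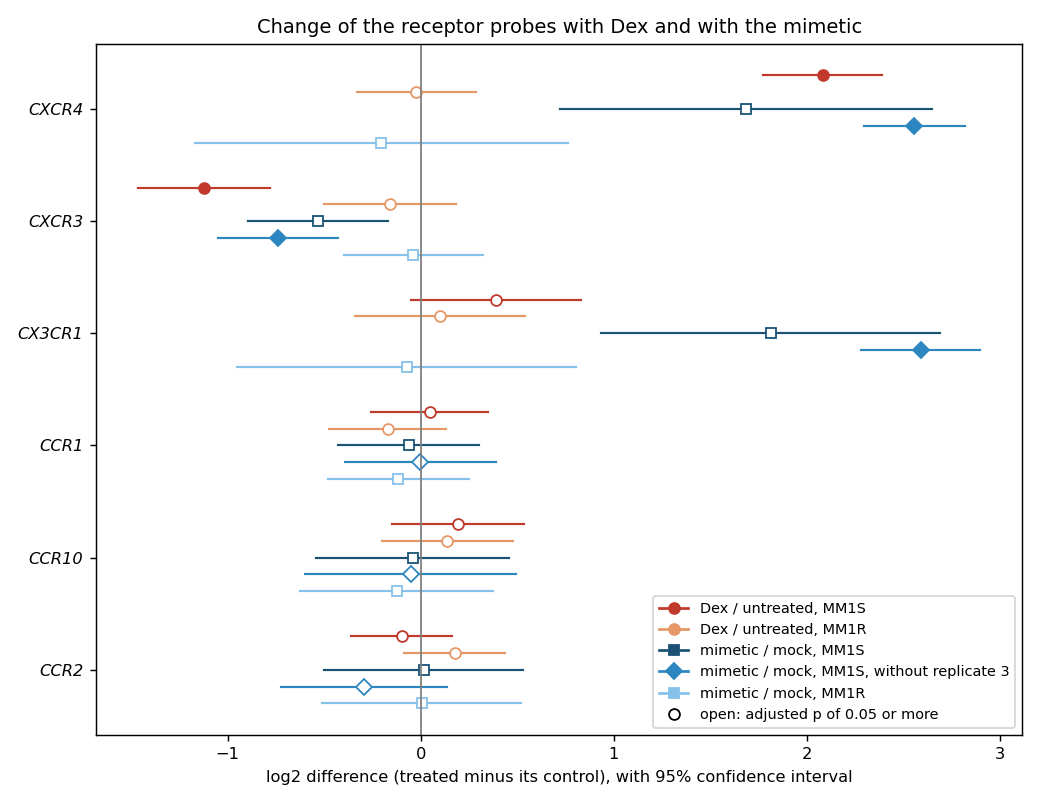
Log2 difference (x axis) of the main probe of 6 receptors between Dex and untreated and between mimetic and mock cells, in MM1S and MM1R, with 95% confidence intervals from limma. Filled symbols passed at an adjusted p under 0.05. CXCR4 lies at 2.08 with Dex in MM1S cells and at 2.56 with the mimetic once replicate 3 is left out, and near 0 in MM1R cells.

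For MM1S cells, a fit of all 24 arrays set the effect of Dex against that of the mimetic, and there treatment and experiment cannot be told apart. With all arrays no receptor passed limma's test (0 of 6, beside 3.86% of 13245 genes). For CX3CR1 the Dex effect minus the mimetic effect was -1.42 ± 0.50 with all arrays (limma, adjusted p = 0.126, and -1.9997 with array weights, adjusted p = 4.69e-05) and -2.20 ± 0.29 without replicate 3 (adjusted p = 1.83e-05). It was the 1 receptor of 6 that passed without that array, where 6.67% of 13180 genes did. For CXCR4 the difference was 0.40 ± 0.51 with all arrays (95% interval -0.65 to 1.44) and -0.47 ± 0.21 without replicate 3 (interval -0.90 to -0.05, adjusted p = 0.208). For CXCR3 it was -0.59 ± 0.25 and -0.38 ± 0.24, also not past the threshold.

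Between the lines, several receptors were higher in MM1R than in MM1S cells, and CXCR4 was not among them. CX3CR1 measured 9.57, 9.83 and 10.53 in untreated MM1R cells, against 8.72, 8.87 and 8.90 in untreated MM1S cells. All MM1R arrays lay above all MM1S arrays, 1 of them by more than the rest, and the difference was 1.15 ± 0.21, 2.21-fold (limma, adjusted p = 0.00146, and 0.0694 in a fit of all 24 arrays). The second CX3CR1 probe gave 0.37 and did not pass (adjusted p = 0.0980). CXCR3 measured 9.74, 10.13 and 9.62 in untreated MM1R cells and 9.11, 8.89 and 9.29 in untreated MM1S cells, higher in MM1R by 0.74 ± 0.16 (adjusted p = 0.00709). Without MM1R untreated replicate 2 the CXCR3 difference was 0.59 with an adjusted p of 0.0573.

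CCR10 was higher in untreated MM1R cells by 0.58 ± 0.16 (9.62, 9.76 and 9.34, against 9.26, 8.99 and 8.74 in MM1S cells, limma, adjusted p = 0.0314). This call was lost without MM1R untreated replicate 1 or 2 or MM1S untreated replicate 2 or 3, with adjusted p of 0.108, 0.143, 0.0875 and 0.167. At its main probe CXCR5 was not over background in untreated MM1S cells and over background on 2 of 3 untreated MM1R arrays (7.18, 7.27 and 7.52), a level at least 1.12-fold higher in MM1R. CCR1 differed by 0.42 ± 0.15 (limma, adjusted p = 0.0804) and CCR2 by -0.04 ± 0.13. CCR1 passed without MM1R Dex replicate 1 or MM1S Dex replicate 3 (adjusted p = 0.0465 and 0.0436), with only the groups compared (0.0139) and with array weights (0.0275).

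CXCR4 measured 9.81, 9.63 and 9.21 in untreated MM1R cells, against 9.77, 9.90 and 10.08 in untreated MM1S cells. The ranges overlapped, and the difference of -0.37 ± 0.15 did not pass (limma, adjusted p = 0.136), whereas the second CXCR4 probe was lower in MM1R by -0.33 ± 0.10 (adjusted p = 0.0413). In all, 3 of 6 receptors at their main probes were higher in untreated MM1R cells and none lower, beside 9.51% of all genes that passed in either direction. The median difference of the 6 was 0.50, against 0.00 over all genes tested.

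The same lines under mock transfection gave differences of the same sign in all of these receptors but CCR2. CX3CR1 measured 10.25, 10.20 and 10.26 in mock MM1R cells, against 7.64, 7.43 and 7.45 in mock MM1S cells, with tight groups far apart. The difference was 2.73 ± 0.41, 6.64-fold (limma, adjusted p = 0.000273). CXCR3 was higher in MM1R by 1.18 ± 0.17, CCR1 by 0.99 ± 0.17 and CCR10 by 1.21 ± 0.24 (adjusted p = 0.000191, 0.000698 and 0.00152). At its main probe CXCR5 measured 7.67, 7.87 and 7.59 in mock MM1R cells and was not over background in mock MM1S cells, a level at least 1.51-fold higher in MM1R. CXCR4 measured 8.96, 8.90 and 8.98 in mock MM1R cells and 9.19, 9.45 and 9.33 in mock MM1S cells, a difference of -0.37 ± 0.45 (adjusted p = 0.571), which passed without MM1S mimetic replicate 3 (SE 0.11, adjusted p = 0.0154). The second CXCR4 probe gave -0.09 in both fits and passed in neither. Thus 4 of 6 receptors passed beside 33.1% of all genes, and 5 of 6 beside 38.6% without that array.

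**Figure D4:**
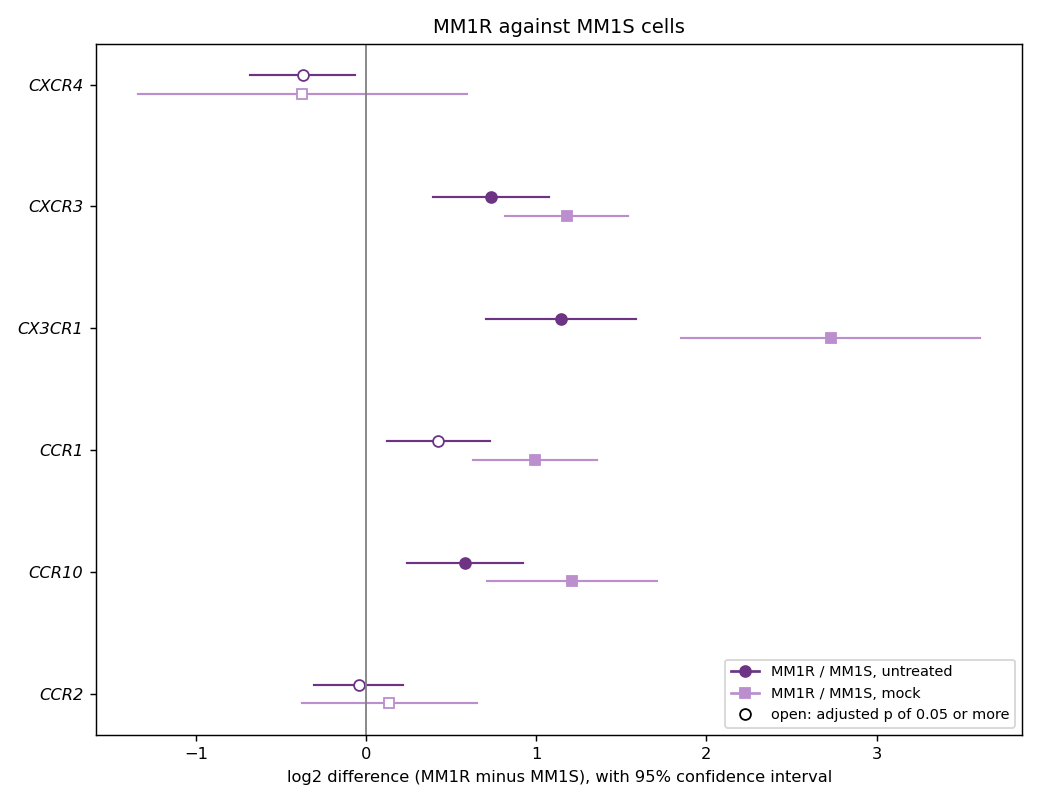
Log2 difference (x axis) between MM1R and MM1S cells of the main probe of 6 receptors, in untreated and in mock cells, with 95% confidence intervals from limma. Filled symbols passed at an adjusted p under 0.05. CX3CR1 differs by 1.15 in untreated and 2.73 in mock cells.

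**Figure D5:**
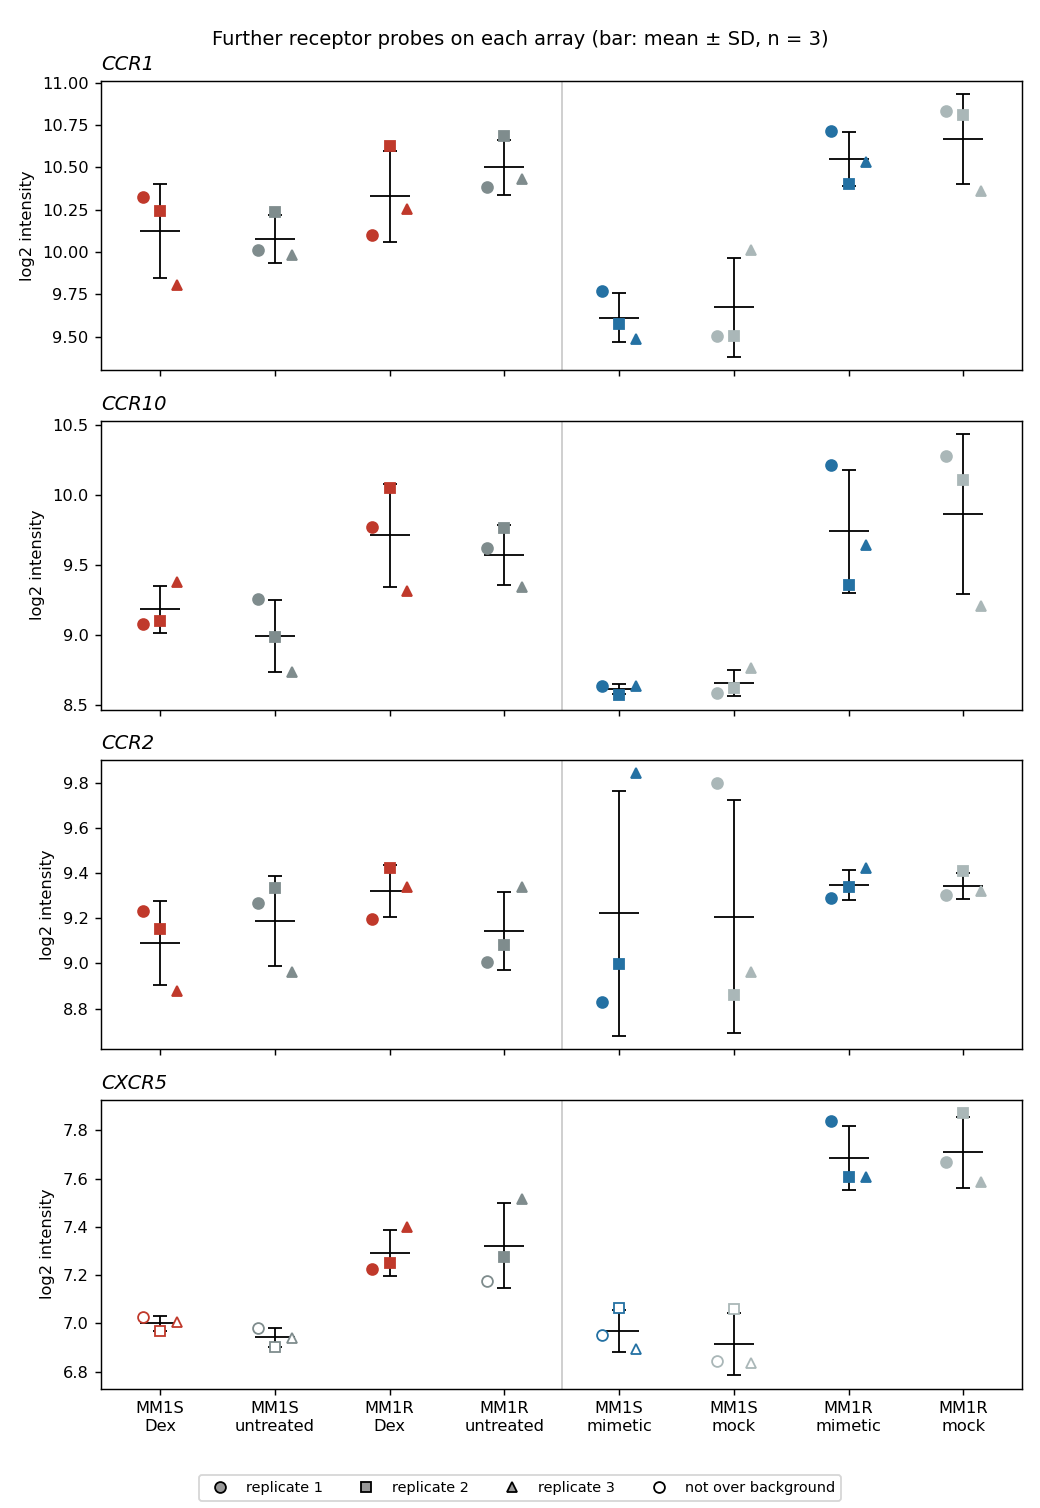
Log2 intensity (y axes) of the main CCR1, CCR10, CCR2 and CXCR5 probes on each array, by group (x axis). Points are single arrays with a shape per replicate number, open points were not over background, and bars give the mean ± SD of 3 arrays. CXCR5 points are open in all MM1S groups, and CCR2 shows 2 high arrays, at 9.84 and 9.80, among the 6 transfected MM1S arrays.

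Mock and untreated cells belong to different experiments, so electroporation, time of the experiment and any handling cannot be told apart in the values that follow. In MM1S cells CX3CR1 was lower in mock than in untreated cells by -1.32 ± 0.36 and CXCR3 by -0.66 ± 0.18 (limma, adjusted p = 0.00693 and 0.00758), 2 of 6 receptors beside 29.2% of all genes. The CXCR3 call was lost with median centring of the arrays (-0.19, adjusted p = 0.441) and with separate normalization of the experiments (-0.34, adjusted p = 0.154). CXCR4 was at -0.60 ± 0.36 with all arrays (adjusted p = 0.234) and -0.60 ± 0.14 without MM1S mimetic replicate 3 (adjusted p = 0.00151), where 3 of 6 receptors passed beside 31.8%. The second CXCR4 probe gave -0.22 there and did not pass (adjusted p = 0.113). In MM1R cells CXCR5 was higher in mock than in untreated cells by 0.39 ± 0.09 (adjusted p = 0.00233), 1 of 7 beside 18.4%, and CXCR4 at -0.60 passed without that array (adjusted p = 0.00207, 2 of 7 beside 21.4%), whereas the second CXCR4 probe gave 0.02 (adjusted p = 0.919). CCR10 also passed there without MM1R mock replicate 3 (0.62, adjusted p = 0.0281). The main CCR2 probe gave 0.02 in MM1S and 0.20 in MM1R cells, whereas a fainter CCR2 probe was lower in mock by -0.57 and -0.62 (adjusted p = 0.00216 and 0.00137).

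The order of the group means differed between the receptors, and it spans both experiments, where treatment and experiment cannot be told apart. CXCR4 was highest in MM1S cells with Dex (12.002 ± 0.03, SD, n = 3), followed by MM1S with the mimetic (11.005 ± 1.51) and untreated MM1S cells (9.92 ± 0.16), and was lowest in MM1R cells with mimetic (8.74 ± 0.03). Between the highest and the next group the arrays did not overlap, though the lowest Dex array (11.98) and the highest mimetic array (11.95) were close. The ranges of neighbours in the order from MM1S mimetic down to MM1S mock cells overlapped, that of the mimetic group only through replicate 3 (9.26). CXCR3 ran the other way, with the 4 MM1R groups on top (9.58 to 9.83, overlapping) and MM1S cells with Dex (7.97 ± 0.20) and with the mimetic (7.91 ± 0.36) at the bottom. CX3CR1 had the 4 MM1R groups on top (9.98 to 10.2, overlapping) and mock MM1S cells alone at the bottom (7.51 ± 0.11). Without replicate 3 the MM1S mimetic mean of CX3CR1 was 10.1, above those of MM1R cells with Dex (10.08) and untreated (9.98), and the order of the other means was kept for all 3 genes.

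Across the 24 arrays, the profile of CXCR4 was most like that of ZFP36L2 (Pearson r = 0.98), an RNA-binding protein that promotes mRNA decay, SPRY1 (0.97), an inhibitor of receptor tyrosine kinase signalling, SMAP2 (0.96), FKBP5 (0.96), a co-chaperone of the glucocorticoid receptor, and JADE1 (0.96), among 10575 genes compared. Least like it were BRSK1 (-0.95), SPCS3 (-0.95), a subunit of the signal peptidase, and ACYP1 (-0.94). Of the members, CXCR3 had r = -0.73 and CX3CR1 -0.03. These describe 24 arrays that share 8 groups and 2 experiments. Within the 12 arrays of the Dex and of the transfection experiment FKBP5 had r = 0.98 and 0.96, and CXCR3 -0.88 and -0.81. Without MM1S mimetic replicate 3 the 5 genes most like CXCR4 were the same, while ACYP1 was at rank 4 from the bottom. With median centring of the arrays BRSK1 had r = -0.78, SPCS3 -0.85, ACYP1 -0.76 and CXCR3 -0.85, so the genes least like CXCR4 depend on the normalization.

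The neighbours of these receptors in the pathway were counted over lists chosen by name. The 27.7% of all genes that passed is the background to the counts with Dex in MM1S cells. Of 13 other chemokine receptors on the array 6 were tested with Dex in MM1S cells, and only ACKR4, a scavenging receptor, passed limma's test. It was over background on 3 of 3 arrays with Dex and 0 of 3 untreated, at least 1.10-fold higher with Dex. Of 20 ligands of the members 6 were tested, of which 1 rose and 4 fell. CXCL13, the ligand of CXCR5, was over background on 3 of 3 arrays with Dex and 0 of 3 untreated, at least 3.98-fold higher with Dex. The calls of ACKR4 and CXCL13 thus rest on detection with Dex only, and both remain in the counts and medians of their lists. CCL3, a ligand of CCR1, fell by 0.98 ± 0.18 to 13.2 with Dex, against 14.1 untreated (adjusted p = 0.000443), CXCL10, a ligand of CXCR3, fell by 0.91 ± 0.18 (adjusted p = 0.000654), and MIF, which also binds CXCR4, fell by 0.32 ± 0.09 (adjusted p = 0.0108).

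Of 28 tested genes that act downstream of the receptors, Dex raised 6 and lowered 1 in MM1S cells. PTK2B, the kinase PYK2, rose by 1.37 ± 0.12, RGS19, a regulator of G protein signalling, by 0.82 ± 0.10 and GNAI1, an inhibitory G protein subunit, by 0.37 ± 0.08 (limma, adjusted p = 3.26e-08, 3.48e-06 and 0.00237). RGS16, another regulator of G protein signalling, is the 1 counted as lowered. It was over background on 0 of 3 arrays with Dex and 3 of 3 untreated, at least 1.16-fold lower, so its call rests on detection in untreated cells only. Of 5 tested receptors of cell positioning outside the chemokine family, P2RY8 rose by 0.43 ± 0.09, while P2RY10 fell by 0.64 ± 0.12 and FPR1 by 0.28 ± 0.09 (adjusted p = 0.00178, 0.000678 and 0.0237). FPR1 was over background on 1 of 3 arrays with Dex and GNAI1 on 2 of 3 untreated arrays, so the sizes of both differences are limited by the background. The medians were 0.03 for the other receptors, -0.40 for the ligands, 0.13 for signalling genes and 0.10 for positioning receptors, against 0.01 over all genes tested. None of these lists had a member past the threshold with Dex in MM1R cells.

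With the mimetic in MM1S cells no gene of these lists passed when all arrays were used. Without replicate 3, where 19.4% of all genes passed, of 8 tested ligands CXCL13 rose by 1.12 ± 0.08, and CCL3 fell by 3.56 ± 0.08 (11.3 with the mimetic, against 14.9 with mock), CCL5 by 1.78 ± 0.20 and CCL14 by 1.46 ± 0.26 (limma, adjusted p = 6.90e-08, 4.08e-14, 1.34e-05 and 0.000987). Counting replicate 3, CXCL13 was over background on 2 of 3 mimetic and 1 of 3 mock arrays, and CCL14 on 2 of 3 mimetic arrays. The sizes of these 2 differences are therefore limited by the background. Of 29 signalling genes 5 rose and 4 fell, with PTK2B at 1.21 ± 0.15, RGS19 at 0.75 ± 0.11 and RAC2, a haematopoietic signalling protein, at 0.50 ± 0.12 (adjusted p = 4.08e-05, 0.000216 and 0.00698). RGS16 fell by 0.46 ± 0.11, GRK6, a receptor kinase, by 0.54 ± 0.14 and RGS2 by 0.55 ± 0.15 (adjusted p = 0.00752, 0.0133 and 0.0173). Of 5 positioning receptors P2RY10 fell by 0.74 ± 0.15 (adjusted p = 0.00343), and none of 7 other chemokine receptors passed.

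Between untreated MM1R and MM1S cells, where 9.51% of all genes passed, CCR6 was the 1 of 6 other chemokine receptors that passed, lower in MM1R by -0.28 ± 0.08 (limma, adjusted p = 0.0354). Of 6 ligands, CCL14 and CCL3 were higher in MM1R by 1.56 ± 0.12 and 0.77 ± 0.18, and CXCL10 was lower by -0.58 ± 0.18 (adjusted p = 1.91e-08, 0.0114 and 0.0467). GRK6 and PIK3CG, a phosphoinositide kinase coupled to G proteins, were the 2 of 28 signalling genes that passed, higher in MM1R by 0.74 ± 0.09 and 0.44 ± 0.12 (adjusted p = 2.09e-05 and 0.0219). P2RY8 and P2RY10 were higher by 0.71 ± 0.09 and 0.41 ± 0.12 (adjusted p = 4.30e-05 and 0.0458).

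Under mock transfection P2RY8, GRK6 and CCL14 were again higher in MM1R than in MM1S cells, by 0.79 ± 0.18, 0.43 ± 0.15 and 1.09 ± 0.32 (limma, adjusted p = 0.00470, 0.0382 and 0.0167), whereas CXCL10 was higher there (0.71 ± 0.14, adjusted p = 0.00191) and P2RY10 lower (-0.53 ± 0.18, adjusted p = 0.0312). These passed without MM1S mimetic replicate 3 too. Without that array 3 of 8 ligands were higher and 1 lower, beside 38.6% of all genes, against 3 and 0 with all arrays. Of 29 signalling genes 3 were higher and 9 lower without it. With all arrays none of 7 other chemokine receptors passed between the mock lines, CCL3 did not pass, and PIK3CG was not among the signalling genes higher in MM1R. Of 29 signalling genes 2 were higher and 9 lower beside 33.1% of all genes, with RHOA, a GTPase of cell migration, at -0.65 ± 0.13 (adjusted p = 0.00210). MIF was higher by 0.35 ± 0.10 and VAV1, a signalling adaptor of lymphocytes, by 0.50 ± 0.15 (adjusted p = 0.0139 and 0.0202), and GNAI3, a subunit of heterotrimeric G proteins, was lower by -0.36 ± 0.09 (adjusted p = 0.00710). GNG2, which is counted among the 9 lower genes, was over background on 0 of 3 mock MM1R and 1 of 3 mock MM1S arrays. Its call rests on values near background, and no difference is given for it.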

How the data were processed

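RNA of 24 samples, 3 in each of 8 groups taken from the labels, was measured on Illumina HumanHT-12 beadchips. The authors processed the scans with beadarray and deposited log2 values before normalization, a detection p-value for each probe whose method is not given in the sources used here, and a table of quantile-normalized log2 values. Per the labels' processing notes the authors also used limma 3.14.1. Of 47224 probes 4 lacked a value and were left out, 17106 carry no gene symbol and 8 several.

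Here the deposited log2 values were quantile normalized over 24 arrays with limma 3.58.1 in R 4.3.3. They lay at most 0.00123 from the authors' table at the receptor probes. A probe entered a fit if 3 or more of the fitted arrays had a detection p-value below 0.05, and was tested with lmFit and eBayes (trend) on group means, 12 arrays per experiment or all 24 across experiments, with Benjamini-Hochberg adjustment over all of them. Errors of differences are standard errors. Where no array of a group was over background, a fold was bounded by that group's lowest intensity among probes over background. The number of arrays and the signal over background limit the precision. Plots used Python 3.11.15 and matplotlib 3.10.9. The fits were tested on simulated data.

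The receptors, lists and alternatives were chosen with earlier results of these data known. The genes named were the 8 receptors, up to 3 genes per list and direction with the smallest adjusted p, and the 5 most and 3 least like CXCR4 among genes over background on at least 12 arrays. The fainter CCR2 probes were singled out after their values were seen, and CXCR5 was taken out of the counts that involve MM1S cells after its detection was seen. MM1S mimetic replicate 3 was singled out by its distances to the MM1S mimetic and mock arrays, which were not taken in other groups. The alternatives covered normalization, background correction with normexp (offset 16), filters, samples, array weights, replicate blocks, thresholds (fold over 2, or adjusted p under 0.001), other probes and leaving out each array.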

Additional observations from a re-analysis of the deposited data

Results flagged for a closer look

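The Dex effect differed between MM1S and MM1R cells, by a test of the difference itself, at 4 receptor probes. The difference on the log2 scale, MM1S minus MM1R, was 2.11 at the main CXCR4 probe and 2.39 at the second, -0.96 at the CXCR3 probe and -0.47 at a fainter CCR2 probe (limma, adjusted p = 1.10e-06, 6.89e-10, 0.00686 and 0.00882). For both CXCR4 probes and for CXCR3 the effect in MM1S cells passed by itself, and for the CCR2 probe it passed in neither line, at -0.20 in MM1S and 0.27 in MM1R cells (adjusted p = 0.0962 and 0.997). With all arrays no receptor passed limma's test of the difference between the mimetic effects of the lines, whereas with array weights CXCR4, CX3CR1 and CXCR3 did (2.51, 2.55 and -0.65, adjusted p = 0.000815, 0.000581 and 0.0192). These weighted values lie nearer to those without MM1S mimetic replicate 3 and, like them, are descriptive. Groups of 3 arrays are too small to single out an outlying array by a rule on gaps, so none was singled out that way.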

How the results depend on the processing

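The counts here cover all 7 genes tested, so they include CXCR5, whose call between the lines follows from its detection in MM1R cells only. Apart from the fits without MM1S mimetic replicate 3, the share of all genes that passed was not taken under the alternatives. The counts therefore show how the calls depend on the processing, and not whether the receptors moved more than other genes. Dex changed 2 receptors in MM1S cells, and 3 (CX3CR1 added) with only the groups compared or array weights. In MM1R cells the count was 0 under each alternative run. Leaving out each array in turn gave 2 receptors throughout in MM1S cells, with CXCR4 at 2.01 to 2.16, and 2 for the difference between the lines, with CXCR4 at 1.95 to 2.28. For that difference 1 receptor, CXCR4, remained with a fold over 2 and with an adjusted p under 0.001.

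The mimetic comparison in MM1S cells had 0 receptors with all arrays, beside 0.566% of all genes. It gave 1 with median centring, 2 without a filter or in a fit of all 24 arrays, and 3 with array weights, where CXCR4 was at 2.32. In the fits without a filter and of all 24 arrays CXCR4 passed at 1.69 (adjusted p = 0.0447 and 0.00617). Leaving out each array gave 0 to 3 receptors and CXCR4 at 1.21 to 2.56, with 3 only without MM1S mimetic replicate 3, where 19.4% of all genes passed. The difference of the mimetic effects gave 3 receptors with array weights (CXCR4 2.51) and 0 to 3, with CXCR4 at 1.42 to 2.76, over the arrays left out.

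Replicate numbers were shared between groups, but in no comparison did all 3 pairs correlate above 0.1, and titles and descriptions number some arrays differently. With the replicate number of the title or the description as a block, the mimetic gave 2 receptors in MM1S cells, CXCR4 at 1.69 (adjusted p = 0.0311) and CX3CR1 at 1.81 (0.0130), CCR1 passed between the untreated lines with the title numbers (0.0306), and the block moved no other count of receptors by over 1.5 times.

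Untreated MM1R against MM1S cells, 4 receptors, gave 2 in a fit of all 24 arrays, 1 with a fold over 2, 0 with an adjusted p under 0.001 and 2 to 5 over the arrays left out. Mock MM1R against MM1S cells, 5 receptors, gave 3 with a fold over 2 and 5 to 6 over the arrays left out. The Dex effect minus the mimetic effect, 0 receptors, gave 1 with array weights and 0 to 1 over the arrays left out. Mock against untreated MM1S cells, 2 receptors, gave 1 with median centring, separate normalization or a fold over 2, 4 with only the groups compared, 0 with an adjusted p under 0.001 and 2 to 3 over the arrays left out. In MM1R cells the 1 receptor became 4 with separate normalization, 2 with only the groups compared or array weights, 0 with either stricter threshold and 1 to 2 over the arrays left out. CCR2 took the opposite sign at other probes in mock against untreated cells, at -0.57 and -0.27 in MM1S and at -0.62, -0.22 and -0.23 in MM1R cells. Of 2206 gene values under alternatives, 109 others changed sign with neither value past the threshold. The cause of these changes was not tested. The fit with only the groups compared was not run where it equals the main one, and receptors below background on all arrays give no level.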
